A study of Mus musculus with 8 samples.

Results

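The genes described here are 10 genes of the non-collagen side of cartilage in mouse: Acan, Hapln1, Comp, Chad, Matn1, Matn3, Matn4, Snorc, Cytl1 and the transcription factor gene Sox9. They were taken from the deposited table of array values as the probe sets annotated to 1 gene only, that gene being one of the 10. This gave 16 probe sets, of which 9 passed a filter on dim values and were tested. The tested probe sets belong to 8 of the 10 genes, out of 12362 genes with a tested probe set in the series. No probe set of Matn1 or Matn3 passed the filter.

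The series holds 8 Affymetrix arrays of total RNA from dissected ankle joints of mice aged 5 months. The first group has 3 arrays of mice with a human TNF (hTNF) transgene, overexpressed, and a functional null of sphingosine kinase 1 (Sphk1), the enzyme that makes sphingosine 1-phosphate. The second has 3 arrays of mice with the same transgene and normal Sphk1, called hTNF here. The last has 2 arrays of wild-type (WT) mice, with normal TNF and normal Sphk1. The promoter of the transgene, the strain and the way Sphk1 was inactivated are not given in any source used here. The labels name a mouse for each array but no litter, dissection or scan batch, so p-values here cover the scatter of these arrays alone, part of which may be technical.

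Values are log2 probe set intensities, and each array's median lay between 6.84 and 6.89 log2. Arrays of the same group correlated at 0.962 to 0.985 over tested probe sets, and WT arrays with transgenic arrays at 0.862 to 0.916. Sphk1 itself went against the label: its brighter probe set (1451596_a_at) read 9.94 to 10.22 log2 on the 3 arrays labelled Sphk1 null, 8.63, 8.65 and 8.28 on the hTNF arrays, and 7.25 and 7.16 on the WT arrays. The dimmer Sphk1 probe set, 1420566_at, did not pass the filter. It read 6.33 to 6.68 log2 on the arrays labelled Sphk1 null and 6.50 to 6.74 on the hTNF arrays. On the WT arrays it read 6.12 and 6.39. Whether either probe set lies in the inactivated stretch of the gene is not given. The label therefore cannot be settled from them, and the group is called "labelled Sphk1 null" throughout. On 3 arrays, replicate 1 labelled Sphk1 null, hTNF replicate 1 and WT replicate 2, both Xist, a transcript of the inactive X chromosome, and the Y-linked Eif2s3y gave signal. They are called the Xist and Y double-signal arrays below, and the counts of members and some differences are also given without them. Leaving them out keeps WT replicate 1 alone for WT, on which all 8 tested members read higher than on WT replicate 2. Without the 3 arrays, the hTNF minus WT difference of Snorc moved from -1.71 to -2.13. That of Hapln1 moved from -0.80 to -1.03, and that of Sox9 from -0.69 to -1.01.

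Cartilage resists compression because aggrecan, a large proteoglycan that carries many chondroitin sulfate chains, is held in a collagen network as aggregates with hyaluronan. The aggregate is locked by link protein, while matrilins, COMP and chondroadherin bridge collagen fibrils, proteoglycans and cells. Chondrocytes make these proteins under Sox9, the transcription factor of the chondrocyte lineage, and in inflamed joints the aggregate is cut by metalloproteases of the ADAMTS and MMP families.

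The promoter windows of 4 members are shown because the values below turn on these genes: Acan, Cytl1 and Chad changed by more than 1 log2 unit, and Hapln1 is the partner of Acan in the aggregate. Each window runs from 250 bases before to 50 bases after the annotated start, from RefSeq on GRCm38.p6, written 5′ to 3′ on the gene's strand. Windows were found for 7 of the 10 members, and Comp, Snorc and Sox9 had none in the table used. Capitals mark the searched letters where present, on either strand: ACAAT, the core bound by SOX proteins, ACAAAG, another letter string bound by SOX proteins, and TATAAA, the TATA box. ACAAT occurs in 31.0% of 32841 mouse windows of this length, ACAAAG in 18.7% and TATAAA in 13.6%, and none of the 3 contains another.
Acan (chr7:79052976-79053275, plus strand): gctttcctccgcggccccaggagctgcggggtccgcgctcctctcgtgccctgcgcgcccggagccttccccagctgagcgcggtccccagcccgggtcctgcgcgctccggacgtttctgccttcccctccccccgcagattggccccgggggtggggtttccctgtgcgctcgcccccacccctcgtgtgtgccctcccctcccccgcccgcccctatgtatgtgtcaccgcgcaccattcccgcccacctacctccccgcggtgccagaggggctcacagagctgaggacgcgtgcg
Cytl1 (chr5:37735269-37735568, plus strand): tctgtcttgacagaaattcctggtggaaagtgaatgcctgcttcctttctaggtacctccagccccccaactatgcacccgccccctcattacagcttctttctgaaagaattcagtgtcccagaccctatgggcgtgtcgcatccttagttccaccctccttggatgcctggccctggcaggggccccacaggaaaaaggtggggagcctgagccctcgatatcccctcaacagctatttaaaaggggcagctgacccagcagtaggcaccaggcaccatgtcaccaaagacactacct
Chad (chr11:94564797-94565096, plus strand): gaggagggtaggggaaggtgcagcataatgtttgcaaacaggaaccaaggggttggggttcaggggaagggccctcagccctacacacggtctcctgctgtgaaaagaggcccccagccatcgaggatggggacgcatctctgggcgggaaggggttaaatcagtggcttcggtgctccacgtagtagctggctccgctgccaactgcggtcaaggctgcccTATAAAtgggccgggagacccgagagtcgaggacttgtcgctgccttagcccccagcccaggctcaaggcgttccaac
Hapln1 (chr13:89540386-89540685, plus strand): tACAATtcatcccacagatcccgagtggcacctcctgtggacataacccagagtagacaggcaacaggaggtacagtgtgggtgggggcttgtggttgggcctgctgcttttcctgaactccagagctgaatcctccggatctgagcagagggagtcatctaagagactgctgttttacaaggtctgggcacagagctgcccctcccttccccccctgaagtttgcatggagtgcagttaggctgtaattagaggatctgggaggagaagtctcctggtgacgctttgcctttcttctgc
The Acan window had a GC content of 74.0%, against a median of 52.7% over all windows, and held none of the 3 letter strings. The Cytl1 window (55.0% GC) held none either. The Chad window (61.0% GC) held TATAAA, starting 28 bases before the annotated start, and the Hapln1 window (54.3% GC) held ACAAT, starting 249 bases before it. A match is a description and not a binding site, and the lack of one says only that those letters are not in the window.

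In hTNF ankles, 6 of the 8 tested genes fell relative to WT and none rose: Cytl1, Snorc, Chad, Acan, Hapln1 and Sox9. Their falls ran between 1.61-fold for Sox9 and 4.13-fold for Cytl1. The tests were limma fits across all tested probe sets with Benjamini-Hochberg adjustment, and a gene was called at an adjusted p under 0.05. In this comparison 19.6% of all 12362 genes were called lower and 16.5% higher. The median log2 difference was -1.07 over the 8 genes, with a range of -2.04 to -0.29, against -0.02 over all genes. The hTNF values lay wholly below the WT values for the same 6 genes, and for 35.1% of all genes. Comp and Matn4 were not called. The count of falls was 4 without WT replicate 1 and 7 without the 3 Xist and Y double-signal arrays. In a whole joint, fewer cells of a type and less RNA per cell cannot be told apart.

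**Figure D1:**
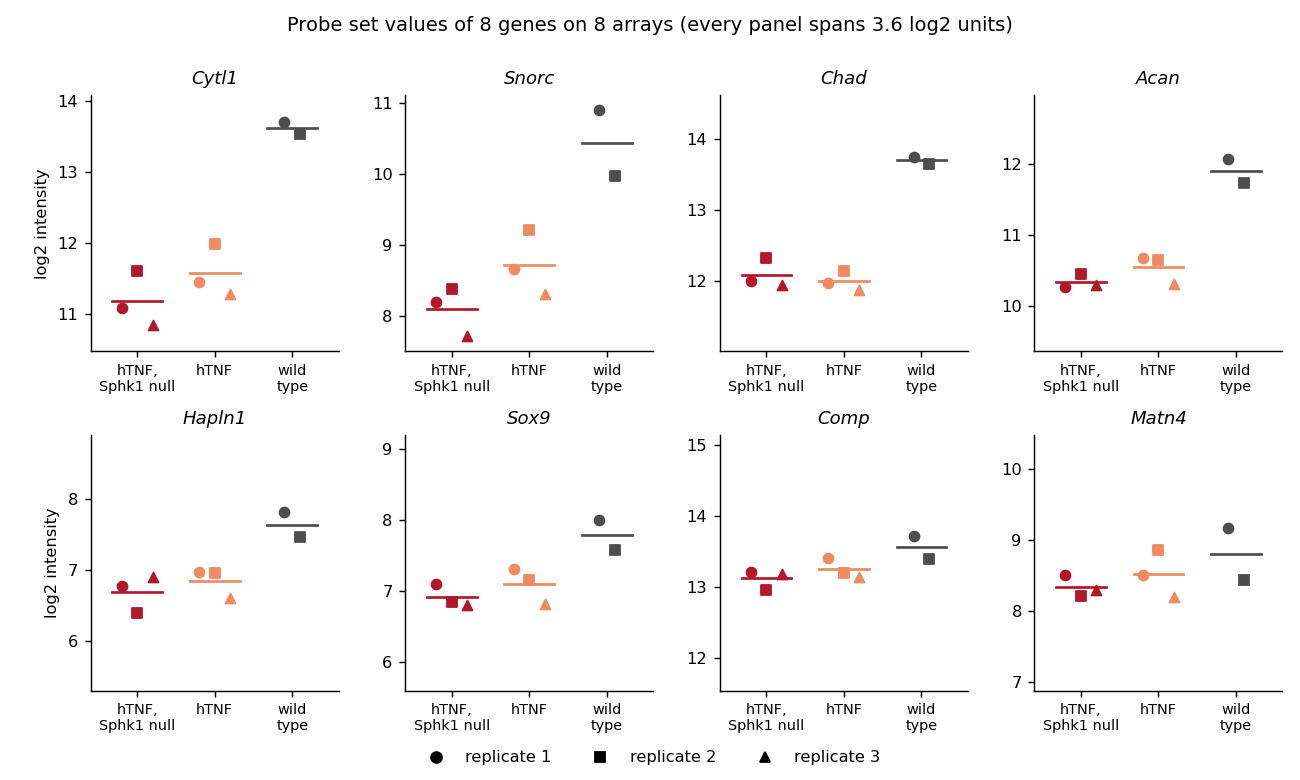
Log2 intensity (vertical axis, 3.6 log2 units in every panel) of the 8 genes with a tested probe set, for hTNF arrays labelled Sphk1 null, hTNF arrays and wild-type arrays from left to right; each point is 1 array, its shape the replicate number, and the bar is the group mean. In 6 panels every hTNF array lies below both wild-type arrays, while the hTNF and wild-type points overlap for Comp and Matn4.

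Acan encodes the core protein of aggrecan and is measured by 1 probe set (1449827_at, gene on chromosome 7). It read 10.26, 10.44 and 10.29 log2 on the arrays labelled Sphk1 null, 10.67, 10.64 and 10.31 on the hTNF arrays, and 12.06 and 11.72 on the WT arrays. All 6 transgenic arrays were thus more than 1 log2 unit below the lower WT array. Acan averaged 10.54 ± 0.20 in hTNF ankles (SD, n = 3) and 11.89 ± 0.24 in WT ankles (SD, n = 2). The difference was -1.35 ± 0.14 (SE; 95% interval -1.68 to -1.02; limma adjusted p = 0.00019), or 2.55-fold lower.

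Hapln1 encodes link protein, which clamps aggrecan onto hyaluronan, and has 4 probe sets on the array (chromosome 13), of which only 1438020_at passed the filter, on 5 of the 8 arrays. That probe set read 6.78, 6.40 and 6.91 log2 on the arrays labelled Sphk1 null, 6.98, 6.96 and 6.61 on the hTNF arrays, and 7.82 and 7.47 on the WT arrays. The transgenic arrays lay on both sides of the filter limit of 6.87, and both WT arrays above it. Hapln1 was 1.74-fold lower in hTNF than in WT ankles (-0.80 ± 0.20, limma adjusted p = 0.0135). The call was lost without hTNF replicate 3 (-0.68, adjusted p = 0.0502) and without WT replicate 1 (-0.62, adjusted p = 0.129).

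The 3 dimmer Hapln1 probe sets, tested only in a fit without the filter, had lower values in the same direction. For 1421633_a_at the hTNF minus WT difference was -0.60 (adjusted p = 0.0358 in that fit), for 1426295_at -0.72 (adjusted p = 0.00363) and for 1426294_at -0.76 (adjusted p = 0.00313). In each of them every hTNF array was below both WT arrays, so the 4 probe sets of the gene did not disagree. Their hTNF minus WT differences ranged from -0.80 to -0.60, although they share the gene's transcripts and are not independent measurements.

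**Figure D2:**
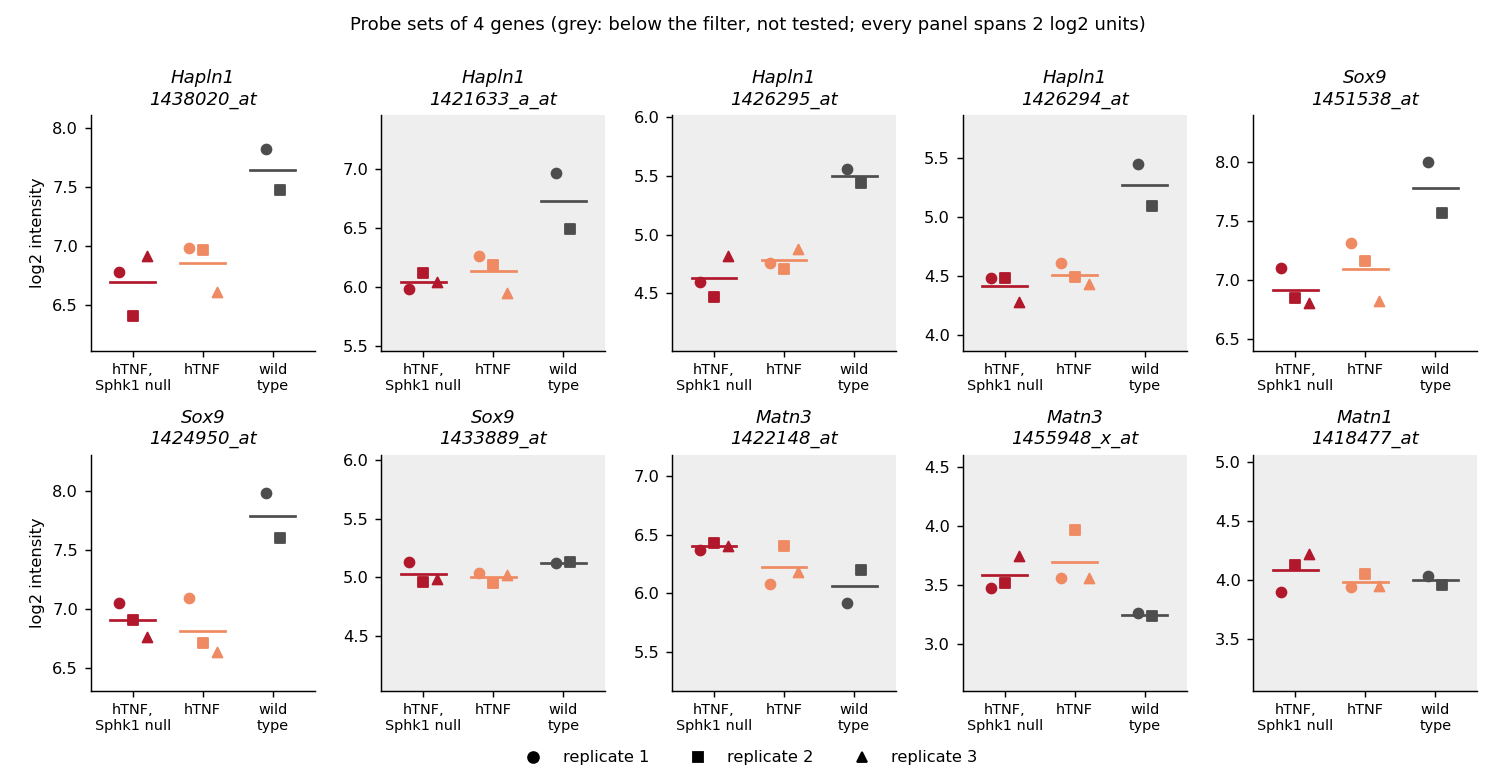
Log2 intensity (vertical axis, 2 log2 units in every panel) of every probe set of Hapln1, Sox9, Matn3 and Matn1 on the 8 arrays, with hTNF arrays labelled Sphk1 null at the left of each panel, hTNF in the middle and wild type at the right; bars are group means and a grey background marks a probe set below the filter. The 4 Hapln1 probe sets and 2 of the 3 Sox9 probe sets have both wild-type arrays on top, and the values of Matn1 overlap between the groups.

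Chad encodes chondroadherin, a small leucine-rich protein that binds collagen and chondrocyte integrins. Its probe set (1420569_at, chromosome 11) read 12.01, 12.33 and 11.94 log2 on the arrays labelled Sphk1 null, 11.98, 12.14 and 11.88 on the hTNF arrays, and 13.75 and 13.65 on the WT arrays. The 6 transgenic arrays fell within 12.33 and 11.88, and no array lay between them and the WT pair. The hTNF minus WT difference was -1.70 ± 0.12 (95% interval -1.98 to -1.42, limma adjusted p = 3.04e-05), 3.25-fold lower, with the smallest adjusted p of the 8 genes.

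Comp encodes cartilage oligomeric matrix protein, a pentameric thrombospondin that is also made by tendon. Its probe set (1419527_at, chromosome 8) read 13.21, 12.96 and 13.18 log2 on the arrays labelled Sphk1 null, 13.41, 13.20 and 13.14 on the hTNF arrays, and 13.72 and 13.39 on the WT arrays. One hTNF array, replicate 1, lay above WT replicate 2. The difference of -0.30 ± 0.12 (95% interval -0.58 to -0.03) did not pass the test over all probe sets (limma adjusted p = 0.0889). It did pass without the 3 double-signal arrays (-0.55, adjusted p = 0.00964), without hTNF replicate 1 alone (-0.39, adjusted p = 0.0438) and without WT replicate 2 alone (-0.47, adjusted p = 0.0346).

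Matn4, a matrilin that is found in cartilage and in other tissues, also overlapped between groups. Its probe set (1418464_at, chromosome 2) read 8.50, 8.21 and 8.29 log2 on the arrays labelled Sphk1 null, 8.50, 8.86 and 8.19 on the hTNF arrays, and 9.17 and 8.44 on the WT arrays. The WT arrays differed from each other by more than the groups did. The hTNF minus WT difference was -0.29 ± 0.24 (95% interval -0.83 to 0.25, limma adjusted p = 0.409), and it was 0.08 without WT replicate 1 (adjusted p = 0.888) and -0.65 without the 3 double-signal arrays (adjusted p = 0.123).

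The cartilage matrilins Matn1 and Matn3 were dim on all 8 arrays. Matn1, which is made by hyaline cartilage outside the articular surface, had 1 probe set (1418477_at, chromosome 4) that read 3.90, 4.13 and 4.22 log2 on the arrays labelled Sphk1 null, 3.94, 4.05 and 3.95 on the hTNF arrays, and 4.03 and 3.96 on the WT arrays. No group stood apart, and in the fit without a filter the hTNF minus WT difference was -0.01 (adjusted p = 0.966). Matn3, a matrilin of growth-plate and articular cartilage, had 2 dim probe sets (chromosome 12). The brighter, 1422148_at, read 6.37, 6.43 and 6.40 on the arrays labelled Sphk1 null, 6.08, 6.40 and 6.18 on the hTNF arrays, and 5.92 and 6.20 on the WT arrays.

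For that Matn3 probe set the hTNF minus WT difference was 0.16 (adjusted p = 0.592 without the filter). The dimmer 1455948_x_at, whose suffix marks probes that may bind other transcripts, read 3.48, 3.52 and 3.75 on the arrays labelled Sphk1 null, 3.56, 3.97 and 3.56 on the hTNF arrays, and 3.26 and 3.24 on the WT arrays. Its difference of 0.45 had an adjusted p of 0.0445 in the fit without a filter. Both probe sets were below the filter limit on every array, so these values are given as intensities and not as a call.

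Snorc encodes a small transmembrane proteoglycan of chondrocytes that carries chondroitin sulfate. Its probe set (1453089_at, chromosome 1) read 8.20, 8.38 and 7.72 log2 on the arrays labelled Sphk1 null, 8.66, 9.21 and 8.32 on the hTNF arrays, and 10.90 and 9.98 on the WT arrays. The WT arrays were farther apart than for any other of the 8 genes, and both were still above every transgenic array. Snorc fell in hTNF ankles by 1.71 on the log2 scale (SE 0.32, 95% interval -2.44 to -0.98, limma adjusted p = 0.0033), 3.27-fold lower. Leaving out 1 array at a time moved the difference between -2.17 and -1.25 and kept the call.

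Cytl1 encodes cytokine-like 1, a small secreted protein made by chondrocytes. Its probe set (1456793_at, chromosome 5) read 11.08, 11.60 and 10.85 log2 on the arrays labelled Sphk1 null, 11.45, 11.98 and 11.28 on the hTNF arrays, and 13.70 and 13.53 on the WT arrays. Each transgenic array was below the lower WT array by more than 1 log2 unit. The hTNF minus WT difference, -2.04 ± 0.24 (95% interval -2.58 to -1.51, limma adjusted p = 0.000293), was the largest of the 8 genes and amounts to 4.13-fold lower.

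Sox9, which drives transcription of Acan, Hapln1 and other chondrocyte genes, has 3 probe sets (chromosome 11), of which 2 were tested. The probe set that stands for the gene, 1451538_at, read 7.10, 6.85 and 6.80 log2 on the arrays labelled Sphk1 null, 7.31, 7.16 and 6.82 on the hTNF arrays, and 8.0 and 7.57 on the WT arrays. The groups did not overlap. Sox9 was 1.61-fold lower in hTNF than in WT ankles (-0.69 ± 0.19, 95% interval -1.12 to -0.25, limma adjusted p = 0.022). The call was lost without hTNF replicate 3 (-0.55, adjusted p = 0.0743) and without WT replicate 1 (-0.47, adjusted p = 0.202).

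The second tested Sox9 probe set, 1424950_at, read 7.05, 6.90 and 6.76 log2 on the arrays labelled Sphk1 null, 7.09, 6.71 and 6.63 on the hTNF arrays, and 7.98 and 7.60 on the WT arrays. It was 1.97-fold lower in hTNF ankles (-0.98 ± 0.19, limma adjusted p = 0.00331), and no single array left out ended its call. The dimmest Sox9 probe set, 1433889_at, read 4.95 to 5.13 log2 over all 8 arrays and differed by -0.12 (adjusted p = 0.572 without the filter).

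**Figure D3:**
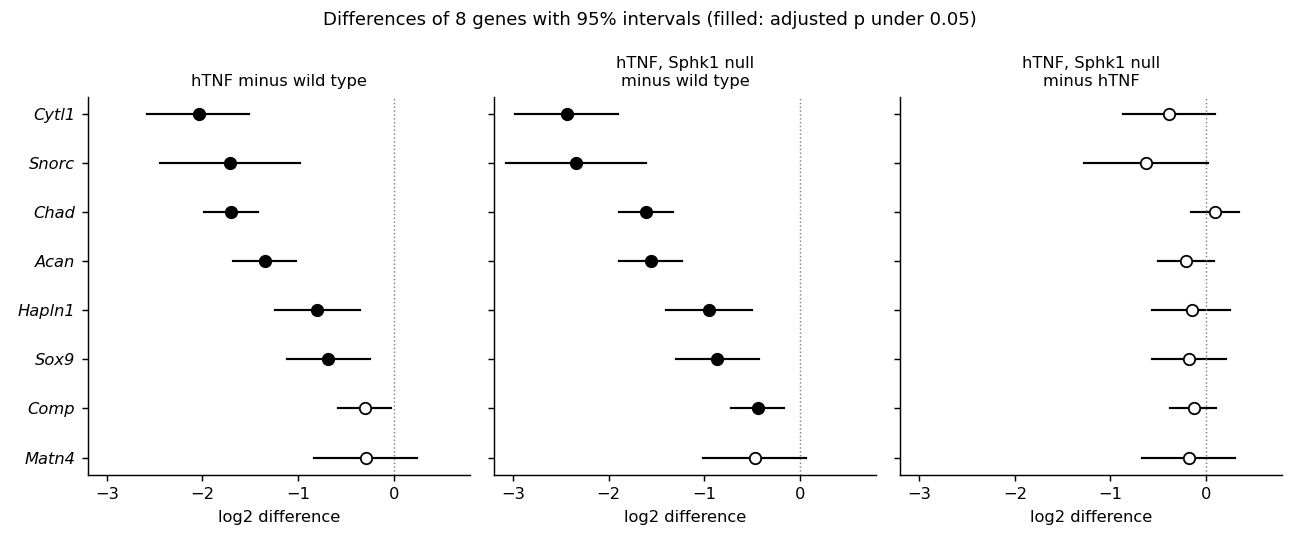
Log2 differences (horizontal axis) of the 8 genes for hTNF minus wild type, hTNF labelled Sphk1 null minus wild type, and hTNF labelled Sphk1 null minus hTNF; points are limma estimates, bars 95% intervals, and filled points have an adjusted p under 0.05. Both comparisons with wild type have negative estimates for all 8 genes, and no point is filled in the comparison of the transgenic groups.

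In ankles labelled Sphk1 null and carrying the transgene, 7 of the 8 genes fell relative to WT and none rose. These 7 are the genes that fell in hTNF ankles, with Comp in addition. In this comparison 23.8% of all genes were called lower and 19.1% higher, and the groups did not overlap, with the lower values in the ankles labelled Sphk1 null, for 7 of the 8 genes and 32.5% of all genes. The median log2 difference of the 8 genes was -1.25, with a range of -2.44 to -0.44, against -0.02 over all genes. The count of falls was 4 without WT replicate 1 and 8 without the 3 Xist and Y double-signal arrays. Both comparisons with WT use the same 2 WT arrays, so their sizes are set side by side and not counted as separate support.

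Cytl1 was 5.42-fold lower in ankles labelled Sphk1 null than in WT ankles (-2.44 ± 0.24, limma adjusted p = 7.85e-05), Snorc 5.06-fold lower (-2.34 ± 0.32, adjusted p = 0.00045) and Chad 3.05-fold lower (-1.61 ± 0.12, adjusted p = 2.63e-05). In the aggregate, Acan was 2.95-fold lower (-1.56 ± 0.14, adjusted p = 6.01e-05) and Hapln1 1.93-fold lower (-0.95 ± 0.20, adjusted p = 0.0046). Sox9 was 1.83-fold lower by 1451538_at (-0.87 ± 0.19, adjusted p = 0.00608) and its other tested probe set differed by -0.89 (adjusted p = 0.00449). Without WT replicate 1 the calls of Hapln1 (-0.77, adjusted p = 0.0544) and of both Sox9 probe sets (-0.65 with adjusted p = 0.0714, and -0.70 with adjusted p = 0.0554) were lost.

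Comp was 1.36-fold lower in ankles labelled Sphk1 null than in WT ankles (-0.44 ± 0.12, limma adjusted p = 0.0192), with all 3 arrays below both WT arrays. This call was lost without replicate 2 labelled Sphk1 null (-0.36, adjusted p = 0.0581) and without WT replicate 1 (-0.27, adjusted p = 0.18). Matn4 differed by -0.47 ± 0.24 (adjusted p = 0.155), which passed without WT replicate 2 (-0.84, adjusted p = 0.0345) and without the 3 Xist and Y double-signal arrays (-0.92, adjusted p = 0.04). That Comp passed in one comparison with WT and not in the other does not show that the transgenic groups differ, and the direct test of that difference follows.

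Between the transgenic groups no member was called by limma, labelled Sphk1 null against hTNF. None of the 8 genes had an unadjusted p under 0.05 either, and none had groups without overlap. Over all genes 0.0% were called lower, 0.0162% were called higher, and 4.9% had all arrays labelled Sphk1 null below all hTNF arrays. Sphk1 itself, by its brighter probe set, was among those called higher (1.53, limma adjusted p = 0.0164). That call was lost without any single hTNF array. The estimates were negative for 7 of the 8 genes, with a median of -0.18 against -0.02 over all genes and a range of -0.63 to 0.09. A p that misses the threshold does not show equal levels, and the intervals give the sizes that these arrays allow.

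Snorc had the most negative estimate, -0.63 ± 0.29 (95% interval -1.28 to 0.02, limma adjusted p = 0.664), followed by Cytl1 with -0.39 ± 0.21 (95% interval -0.87 to 0.09, adjusted p = 0.687). For Acan the difference was -0.21 ± 0.13, with an interval of -0.50 to 0.08 (adjusted p = 0.711). The lower ends of these 3 intervals still lie above the hTNF minus WT estimates of the same genes, which use the same hTNF arrays. For Snorc the interval overlaps that of hTNF minus WT (-2.44 to -0.98), so the sizes are not ordered by it. Chad differed by 0.09 ± 0.11 (interval -0.16 to 0.35, adjusted p = 0.855), Comp by -0.13 ± 0.11 (interval -0.38 to 0.11, adjusted p = 0.793) and Matn4 by -0.18 ± 0.22 (interval -0.67 to 0.30, adjusted p = 0.851). The estimates for Hapln1, -0.15 ± 0.18 (interval -0.56 to 0.25, adjusted p = 0.848), and Sox9, -0.18 ± 0.17 (interval -0.57 to 0.21, adjusted p = 0.813), were of like size. The second Sox9 probe set had the opposite sign, 0.09 ± 0.17 (adjusted p = 0.915).

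The cartilage collagens, whose fibrils hold these proteins, moved unevenly beside them. Of 7 tested collagen genes of a list of 8, 3 fell and 1 rose in hTNF against WT ankles, with a median of -0.32. In that comparison 19.6% of all genes fell and 16.5% rose. Col10a1, the collagen of hypertrophic chondrocytes, fell by 1.40 on the log2 scale (limma adjusted p = 0.0104), and Col9a1 and Col9a3, chains of the collagen on the fibril surface, by 1.14 (adjusted p = 0.0272) and 0.66 (adjusted p = 0.0107). Col11a1, a fibril core chain also made outside cartilage, rose by 0.58 (adjusted p = 0.0465). Without WT replicate 1 none of these 4 calls held: Col10a1 was at -1.20 (adjusted p = 0.0914), Col9a1 at -0.70 (adjusted p = 0.248), Col9a3 at -0.45 (adjusted p = 0.119) and Col11a1 at 0.32 (adjusted p = 0.367). The call of Col9a1 was also lost without hTNF replicate 2 or 3, and that of Col11a1 without any single hTNF array or replicate 3 labelled Sphk1 null.

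Col2a1, the main fibrillar collagen of cartilage, was not called. It read 9.38, 10.07 and 9.84 log2 on the arrays labelled Sphk1 null, 9.99, 9.47 and 9.87 on the hTNF arrays, and 9.78 and 10.41 on the WT arrays. The 3 groups overlapped, and the hTNF minus WT difference was -0.32 ± 0.25 (95% interval -0.88 to 0.24, adjusted p = 0.375). It was -0.63 without WT replicate 1 (adjusted p = 0.163) and ranged up to 0.0 with 1 array left out.

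Of 9 tested genes among 13 other secreted cartilage proteins, 5 fell and 1 rose in hTNF ankles. The shares over all genes were 19.6% and 16.5%. Cnmd, chondromodulin, an inhibitor of blood vessel growth into cartilage, fell by 1.78 (limma adjusted p = 0.00451), and Scrg1, a small secreted protein of cartilage, by 1.34 (adjusted p = 0.000213). Both passed the filter only through the 2 WT arrays, a selection that favours a fall. Omd, osteomodulin, a leucine-rich protein of mineralised tissue, fell by 1.08 (adjusted p = 0.0119), while Epyc, epiphycan, a leucine-rich proteoglycan of cartilage, rose by 1.21 (adjusted p = 0.000964). The median of the list was -0.29. Cilp and Cilp2 also fell, by 0.29 (limma adjusted p = 0.0276) and 0.64 (adjusted p = 0.00573). Without WT replicate 1 the calls of Cnmd (-1.24), Omd (-0.87), Cilp (-0.18) and Cilp2 (-0.50) were lost. Those of Scrg1 (-1.25) and Epyc (1.19) held. The call of Cilp was also lost without hTNF replicate 1 or 3.

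Among 11 tested transcription factors and signalling genes of chondrocytes, from a list of 16, 3 fell and 2 rose in hTNF ankles. The median was -0.26, and the shares over all genes were 19.6% called lower and 16.5% higher. Sox6, a partner of Sox9, fell by 1.34 (limma adjusted p = 0.000167). It read 8.32, 8.28 and 8.45 log2 on the arrays labelled Sphk1 null, 8.52, 8.41 and 8.20 on the hTNF arrays, and 9.87 and 9.57 on the WT arrays. The other partner, Sox5, differed by -0.30 (adjusted p = 0.0511). Mef2c, a factor of hypertrophic chondrocytes and of muscle, fell by 1.37 (adjusted p = 0.000359), and Ihh, a growth-plate signal that passed the filter only through the 2 WT arrays, by 0.81 (adjusted p = 0.0239). Runx3 rose by 0.85 (adjusted p = 0.014). Without WT replicate 1 Ihh (-0.41, adjusted p = 0.237) and Runx3 (0.56, adjusted p = 0.142) lost their calls, and Ihh lost it also without any single hTNF array.

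Of relatives that act mainly outside cartilage, 8 tested genes among 11, none was called lower in hTNF ankles and 2 rose. Their median was -0.03, while 19.6% of all genes fell and 16.5% rose. Thbs4, a thrombospondin of tendon and close relative of Comp, rose by 0.42 (limma adjusted p = 0.0034), and Thbs3 by 0.58 (adjusted p = 0.0206), a call that was lost without hTNF replicate 2 or 3 or WT replicate 2 (highest adjusted p = 0.156). Versican (Vcan), the aggrecan relative of soft tissue, differed by -0.20 (adjusted p = 0.247), and Matn2, a matrilin of many tissues, by 0.01 (adjusted p = 0.963). In ankles labelled Sphk1 null 2 of the 8 rose and 1 fell relative to WT, where 19.1% of all genes rose and 23.8% fell.

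Chondroitin sulfate synthesis makes the sugar chains of aggrecan. Of its 17 tested genes, from a list of 21, 7 rose, 1 fell and 9 were not called in hTNF ankles, where 16.5% of all genes rose and 19.6% fell, and the median was 0.37. Chsy1, a chain polymerase, rose by 0.88 (limma adjusted p = 0.00147), the sulfate transporter Slc26a2 by 0.57 (adjusted p = 0.00837) and Papss2, which makes the activated sulfate donor, by 0.55 (adjusted p = 0.00585). B4galt7, an enzyme of the linker to the core protein, rose by 0.49 (adjusted p = 0.0292), but passed the filter only through the 6 transgenic arrays, a selection that favours a rise. Its call was lost without hTNF replicate 1 or 2 or either WT array (highest adjusted p = 0.133) and without the 3 double-signal arrays (0.45, adjusted p = 0.164). The call of Slc26a2 was lost without WT replicate 1 (0.55, adjusted p = 0.0609). The 1 gene that fell was Chst15, a sulfotransferase, at -0.46 (adjusted p = 0.00941).

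Of 7 tested genes of hyaluronan synthesis and binding, from a list of 9, 3 rose and 1 fell in hTNF ankles. Their median was 0.52, while 16.5% of all genes rose and 19.6% fell. Tnfaip6, which binds hyaluronan and is known to be induced by TNF, rose by 2.61 (limma adjusted p = 7.41e-05), though it passed the filter only through the 6 transgenic arrays, a selection that favours a rise, and Cd44, a cell-surface hyaluronan receptor also carried by leukocytes, by 2.00 (adjusted p = 4.15e-06). Hmmr, a hyaluronan receptor that is also a mitotic spindle protein, rose by 0.62 (adjusted p = 0.0131), and its call was lost without WT replicate 1 (0.51, adjusted p = 0.114). Has1, a hyaluronan synthase, fell by 0.66 (adjusted p = 0.0028).

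Of 10 genes for proteases that cut aggrecan or COMP and their inhibitor Timp3, all tested, 5 rose and 3 fell in hTNF ankles. The shares over all genes were 16.5% and 19.6%. Mmp3, stromelysin 1, rose by 4.77 (limma adjusted p = 1.75e-06) and Mmp13, a collagenase, by 2.64 (adjusted p = 6.27e-05). Adamts7, a COMP-cleaving protease, rose by 1.36 (adjusted p = 0.00528). The aggrecanase Adamts4 rose by 0.91 (adjusted p = 0.00224), having passed the filter only through the 6 transgenic arrays, a selection that favours a rise, whereas Adamts5, the other main aggrecanase of mouse joints, differed by -0.27 (adjusted p = 0.106). Timp3, an inhibitor of aggrecanases, fell by 1.18 (adjusted p = 0.000119), reading 10.87, 11.18 and 10.99 log2 on the arrays labelled Sphk1 null, 11.18, 11.07 and 10.94 on the hTNF arrays, and 12.26 and 12.22 on the WT arrays. The proteases Adamts1 and Adamts9 were called lower as well, at -0.60 (adjusted p = 0.00351) and -0.55 (adjusted p = 0.0306).

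**Figure D4:**
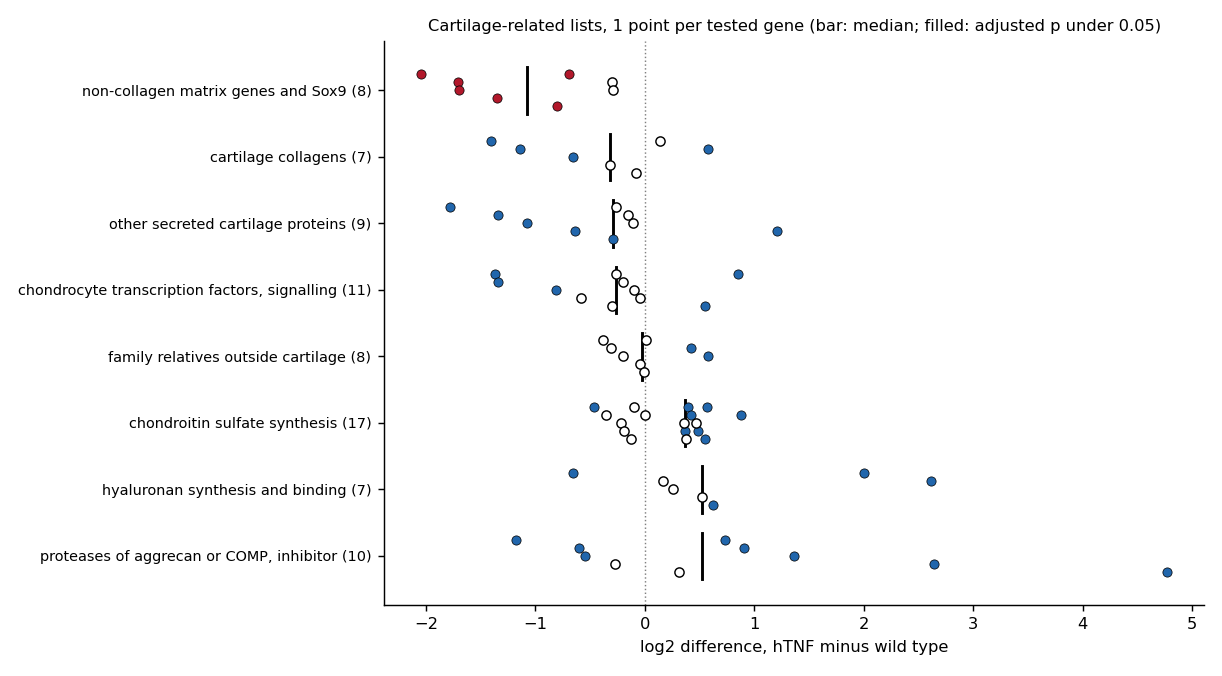
Log2 difference of hTNF minus wild type (horizontal axis) for each tested gene of the 8 genes and of 7 related lists, with the number of tested genes in brackets; bars mark the median and filled points have an adjusted p under 0.05. The 8 genes have a median of -1.07 and the proteases a median of 0.52, with Mmp3 at 4.77 on the far right.

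No gene of these 7 lists was called between the transgenic groups, in which 0.0162% of all genes were called higher and 0.0% lower. In ankles labelled Sphk1 null against WT, 23.8% of all genes were called lower and 19.1% higher. There the cartilage collagens gave 3 falls and 1 rise, and the other secreted cartilage proteins 4 falls and 1 rise. Chondroitin sulfate synthesis gave 8 rises and 1 fall, hyaluronan genes 5 rises and no fall, and the proteases with Timp3 6 rises and 2 falls. The medians were -0.33 for the collagens, -0.22 for the other secreted proteins, 0.41 for chondroitin sulfate synthesis, 0.72 for hyaluronan and 0.80 for the proteases.

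Markers of other tissues in the joint differed between the same groups. For the counts in hTNF against WT below, 19.6% of all genes fell and 16.5% rose. The mean log2 level of 11 skeletal muscle markers was 12.58 to 13.01 on the arrays labelled Sphk1 null, 12.87 to 13.19 on the hTNF arrays, and 14.17 to 14.18 on the WT arrays, and 10 of the 11 fell in hTNF ankles. For 6 adipocyte markers it was 8.61 to 9.14 on the arrays labelled Sphk1 null, 9.17 to 9.29 on the hTNF arrays, and 11.64 to 11.70 on the WT arrays, and all 6 fell in hTNF ankles. In the other direction, 7 of 8 macrophage and monocyte markers rose in hTNF ankles, with list means of 11.86 to 12.03 on the arrays labelled Sphk1 null, 11.45 to 11.86 on the hTNF arrays, and 9.85 to 9.87 on the WT arrays. Of 8 synovial fibroblast markers 5 rose and 1 fell in hTNF ankles, and of 4 proliferation markers 3 rose. The proliferation means were 9.13 to 9.54 on the arrays labelled Sphk1 null, 9.33 to 9.38 on the hTNF arrays, and 6.90 and 8.86 on the 2 WT arrays, which thus lay far apart. The part of these shifts in the values of the cartilage genes was not tested.

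The chondrocyte markers, none of them a member and all taken from the collagen and secreted protein lists above, had list means closer together. Of 10 listed, 7 were tested, and their mean log2 level was 8.01 to 8.16 on the arrays labelled Sphk1 null, 8.19 to 8.34 on the hTNF arrays, and 8.47 to 8.65 on the WT arrays. Both WT means still lay above every transgenic mean. However, the list holds Cnmd, which passed the filter only through the 2 WT arrays. That selection favours higher WT means, so this order is not read as a result. In hTNF against WT ankles 3 of the 7 fell (Cnmd -1.78, Col9a1 -1.14 and Col9a3 -0.66). Another 2 rose (Epyc 1.21 and Col11a1 0.58), so the list mean combines changes in both directions. Col2a1, a defining marker, lay at 9.38 log2 or above on every array, over the filter limit of 6.87. The chondrocyte content of the joints was not tested.

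Keratinocyte markers varied between arrays of a group without a called gene among 9, with list means of 6.90 to 10.64 on the arrays labelled Sphk1 null, 6.73 to 11.97 on the hTNF arrays, and 7.46 to 8.67 on the WT arrays. The means of 7 neutrophil markers were 10.10 to 11.89 on the arrays labelled Sphk1 null, 9.85 to 11.02 on the hTNF arrays, and 8.20 and 11.81 on the 2 WT arrays. The mean of 6 tendon markers, a tissue that also makes Comp, was 10.03 to 10.20 on the arrays labelled Sphk1 null, 9.92 to 10.21 on the hTNF arrays, and 10.35 to 10.39 on the WT arrays. In hTNF against WT ankles 2 of the 6 fell (Angptl7 -2.29 and Mkx -0.55) and 1 rose (Thbs4 0.42). Over all genes 19.6% fell and 16.5% rose. The median difference of the 6 was 0.06, so the tendon list mean combines changes in both directions. The mean of 7 osteoblast and osteocyte markers was 9.11 to 9.34 on the arrays labelled Sphk1 null, 9.08 to 9.57 on the hTNF arrays, and 9.74 to 9.84 on the WT arrays. Their part in the results was not tested.

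**Figure D5:**
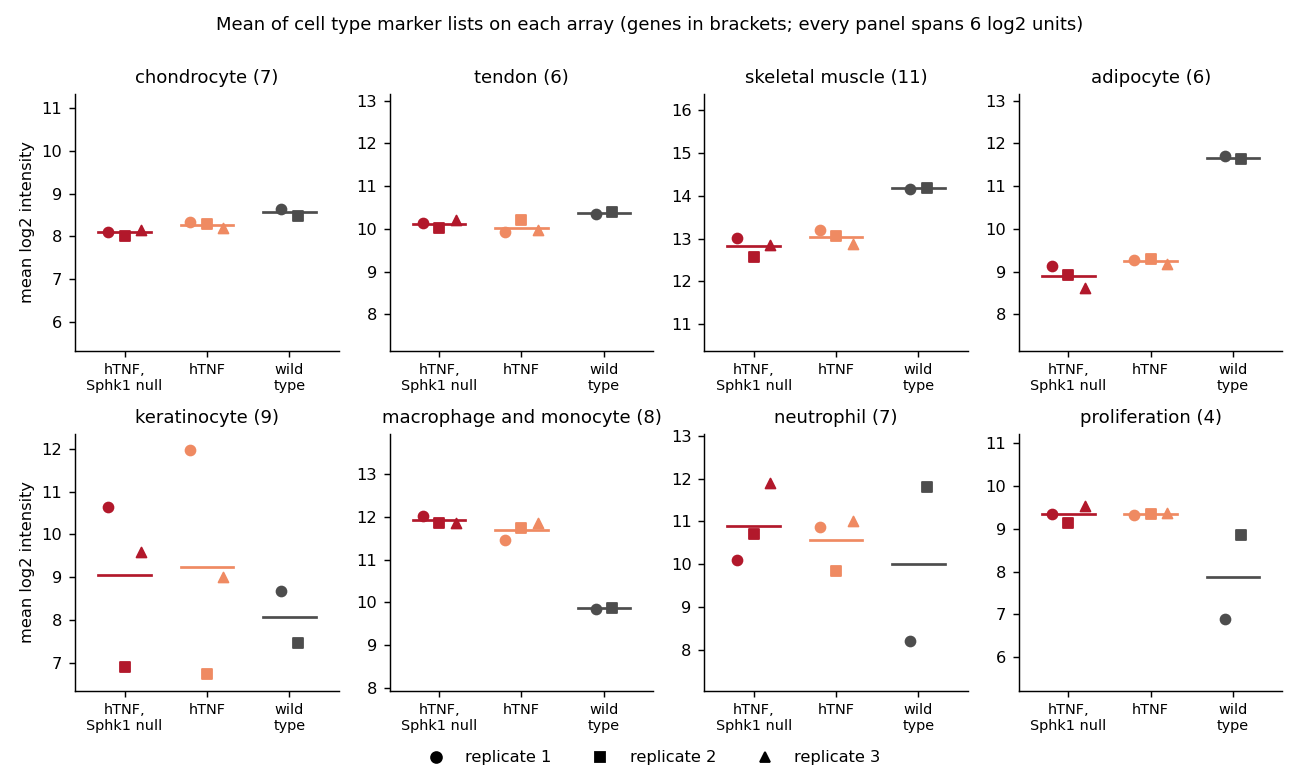
Mean log2 intensity (vertical axis, 6 log2 units in every panel) of 8 marker lists on each array, with hTNF arrays labelled Sphk1 null at the left, hTNF in the middle and wild type at the right; points are arrays, shapes replicate numbers, bars group means, and brackets give the number of genes. The muscle and adipocyte panels have both wild-type arrays on top, the macrophage panel has them at the bottom, and the 2 wild-type arrays lie far apart for neutrophil markers, at 8.20 and 11.81.

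Genes with the most similar profile over the 8 arrays were found for the 4 members called in hTNF against WT with a difference of at least 1 log2 unit. Likeness was the root mean square (RMS) difference between profiles centred on their own mean, over 12354 other genes, so it includes the group differences already given. For Acan the nearest were Car14, a carbonic anhydrase, at an RMS difference of 0.07 log2 units, the kinase gene Prkg1 at 0.08, the glypican gene Gpc3 at 0.10 and the spectrin gene Sptb at 0.11. For Chad they were Apol6 (0.09), Megf10 (0.10), Ntrk3 (0.13) and the clusterin gene Clu (0.13). For Cytl1 they were Frzb (0.16), a secreted Wnt antagonist, Meltf (0.19), Crispld1 (0.22) and Mrap (0.23). For Snorc they were Cnmd (0.17), Pck1 (0.23), Car8 (0.24) and Arpp21 (0.27).

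The nearest other member was farther away than all 4 of these genes for Acan, Chad and Cytl1. Acan and Chad lay 0.19 apart, and Cytl1 and Snorc 0.25 apart, which for Snorc was closer than Arpp21. No statement on shared regulation follows from likeness over 8 arrays that fall into groups.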

How the data were processed

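Total RNA from mouse ankle joints was hybridised to 8 single-colour Affymetrix arrays. The deposited table holds log2 values for 45101 probe sets. The submitters' processing notes list RMA, MAS5 and Affymetrix Expression Console without saying which gave the deposited log2 values. Medians of the 8 arrays are nearly equal, so differences in total RNA per joint are not visible, and a fold change is one of summarised brightness.

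Gene names came from the platform annotation and were brought up to date through identifiers in a table of GRCm38.p6 genes, which matched 34741 of the 34945 probe sets with 1 gene; 932 had several genes, 9160 none, and 64 controls were left out. Listed genes without such a probe set (Clec3a, Runx2, Xylt1 and Hyal1) are not analysed here. A probe set was tested where it exceeded the table median (6.87) on at least 2 of the 8 arrays, which left 24115. A limma 3.58.1 model (R 4.3.3) with a mean for each group used all 8 arrays and an intensity trend in the moderated variances. Benjamini-Hochberg adjustment covered every tested probe set per contrast, with calls at an adjusted p under 0.05. Probe sets below the filter were read from a fit without it. The brightest tested probe set stood for its gene. The number of arrays limits the precision, and the fit was tested on simulated data.

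The members, lists and marker genes were chosen with earlier results of these data known. All members are named. From each list, up to 4 genes called in hTNF against WT with the largest differences are named. With none called, the 2 with the smallest p are named. Col2a1, Cilp, Cilp2, Sox5, Vcan, Matn2, Chst15, Adamts1, Adamts4, Adamts5, Adamts9, Angptl7 and Mkx were named after their values were seen. Arrays that share a replicate number did not deviate together throughout: the correlations of their deviations from the group means were 0.228, 0.054 and 0.251 between the transgenic groups, 0.273 and 0.185 between arrays labelled Sphk1 null and WT, and -0.048 and -0.167 between hTNF and WT, so the numbers were not taken to pair the samples. Other filters, variance models, normalization, an offset, the choice of probe set, a replicate block and left-out arrays were tried. Promoter windows are from RefSeq.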

Additional observations from a re-analysis of the deposited data

How the results depend on the processing

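Across 17 alternatives, Acan, Cytl1, Snorc and Chad kept their calls against WT in both transgenic groups. The hTNF minus WT difference ranged from -1.58 to -1.18 for Acan, -2.25 to -1.89 for Cytl1, -2.17 to -1.25 for Snorc and -1.77 to -1.63 for Chad. The count of members called lower ranged from 4 to 7 in hTNF against WT, and from 4 to 8 with 1 array left out in arrays labelled Sphk1 null against WT; it was 0 under all 17 alternatives between the transgenic groups. Hapln1 and Sox9 had no value under the filter that asks for all 8 arrays. With the replicate block, 7 members were called lower in hTNF against WT (Comp joined at -0.29, adjusted p = 0.0451), 7 in arrays labelled Sphk1 null against WT and 0 between the transgenic groups.

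Among the cartilage collagens and other secreted cartilage proteins, Cnmd and Scrg1 passed the filter only through the 2 WT arrays. This selection favours a fall, and the filter on all 8 arrays leaves out both genes and Col9a1. Over all genes, 19.6% were called lower in hTNF against WT and 23.8% in arrays labelled Sphk1 null against WT. With Cnmd and Scrg1 counted, 8 of the 16 tested genes were called lower in hTNF against WT. This count was 5 of 13 with the filter on all 8 arrays, where fewer genes were tested, and 1 to 8 with 1 array left out, the 1 being without WT replicate 1. In arrays labelled Sphk1 null against WT it was 7, then 4 with that filter and 4 to 8 with 1 array left out. Without WT replicate 1, WT is a single array that is assumed to vary like the other groups. Among the members, leaving out 1 array turned the sign of 2 uncalled differences: Matn4 in hTNF against WT (-0.65 to 0.08) and Chad between the transgenic groups (-0.03 to 0.17, with the negative value without replicate 2 labelled Sphk1 null). Over all probe sets, 7965 were called in hTNF against WT and 4695 without WT replicate 1. Between the transgenic groups 2 were called, 6 after quantile normalization, 1 with the filter on all 8 arrays, 0 without the 3 Xist and Y double-signal arrays and 0 to 3 with 1 array left out. The cause of these shifts was not tested.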

Other observations

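Within the groups, the members deviated together by array. All 8 tested members read higher on WT replicate 1 than on WT replicate 2, with a mean deviation of 0.21 log2 units from the group mean, while 54.6% of all genes were higher on WT replicate 1. All 8 were lowest on hTNF replicate 3 among the hTNF arrays, with a mean deviation of -0.25, where 26.3% of all genes had their lowest hTNF value. The arrays labelled Sphk1 null shared no such order, with 3 members highest on replicate 1, 4 on replicate 2 and 1 on replicate 3. The members were measured on the same RNA, so these are values of single arrays and not independent repeats.

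Has1, a hyaluronan synthase, and Adamts1, a protease that can cut aggrecan, had lower values in hTNF ankles and values close to WT in ankles labelled Sphk1 null. Has1 read 9.75, 9.51 and 9.50 log2 on the arrays labelled Sphk1 null, 8.87, 8.87 and 9.02 on the hTNF arrays, and 9.64 and 9.51 on the WT arrays. Adamts1 read 8.89, 8.74 and 8.88 on the arrays labelled Sphk1 null, 8.19, 8.09 and 8.13 on the hTNF arrays, and 8.84 and 8.63 on the WT arrays. In both genes the hTNF arrays lay below all other arrays. Of all genes, 35.1% had every hTNF array below both WT arrays. A share of 5.1% had every array labelled Sphk1 null above every hTNF array. Adamts1 was named after its values were seen. Between the transgenic groups neither passed the limma test over all probe sets, with a difference of 0.67 for Has1 (adjusted p = 0.317) and 0.70 for Adamts1 (adjusted p = 0.232).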
